A study of Mus musculus with 33 samples.

Results

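Neurotransmitter receptor genes and the genes that give a neuron its transmitter were followed through the differentiation of P19 cells, a mouse embryonal carcinoma line. The set was chosen by symbol. It holds every gene whose symbol starts with Gria, Grik, Grin1, Grin2, Grin3, Gabr, Glra, Chrn or Chrm, or with Grid or Grm and a digit, together with Glrb, Gad1, Gad2, Slc17a6, Slc17a7 and Slc32a1. Of 79 symbols that meet this rule, 43 had a row among the 14717 genes of the deposited table. The other 36, Slc17a7, Grin2a, Chrna1 and Gabra2 among them, are not analysed here. The 43 are 4 AMPA, 4 NMDA, 4 kainate and 2 delta glutamate receptor genes, 4 metabotropic glutamate receptors, 8 GABA-A, 3 glycine, 7 nicotinic and 3 muscarinic receptor genes and 4 genes of transmitter identity.

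The 15 RNA libraries fall into 5 groups of 3. D3RA and D6RA are cells at day 3 and at day 6 of a course begun with 1 µM all-trans retinoic acid (RA), which drives this line toward neurons. In D3DMSO and D6DMSO the same days were taken from cells given 1% dimethyl sulfoxide (DMSO), which drives it toward mesoderm and heart muscle. Both routes began with 2 days as embryoid bodies, which are floating aggregates of cells, and then went back to flasks with maintenance medium. D0 is the undifferentiated line, with neither agent, and all groups come from this 1 line. Libraries of 1 group are named biological replicates in the design text, with no mention of separate cultures. The p-values therefore measure only how far these libraries spread, which may be technical. Another 18 samples of chromatin immunoprecipitation are not analysed here.

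As background, fast signals between neurons pass through ion channels built from several subunits that open when a transmitter binds. Glutamate opens AMPA, NMDA and kainate channels and excites, GABA opens GABA-A channels and glycine opens glycine channels, both of which mostly inhibit in the adult brain, and acetylcholine opens nicotinic channels. Metabotropic glutamate and muscarinic receptors signal through G proteins instead. Which transmitter a neuron releases follows from the enzymes that make it and the carriers that load it into vesicles: Gad1 and Gad2 make GABA, Slc32a1 loads GABA and glycine, and Slc17a6 loads glutamate.

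Total counts per library were 3549553 to 9823766 in D3RA, 38242453 to 49644316 in D6RA, 5857131 to 6868198 in D3DMSO, 38965729 to 44520429 in D6DMSO and 7129180 to 9878744 in D0. Mitochondrial genes held 41.6 to 42.6% of the counts in D6RA, 49.8 to 55.8% in D6DMSO and none in the D0 and D3 libraries, and whether the libraries or the making of the table differed is not given in the sources used here. Day cannot be told apart from this wherever a D6 group is set against an earlier one. Levels are given in CPM, which are counts divided by a scaled library size, in the order of replicates 1, 2 and 3. A single read was worth 0.0911 to 0.457 CPM in D3RA, where replicates 2 and 3 were the shallowest, 0.0313 to 0.0410 in D6RA, 0.138 to 0.205 in D3DMSO, 0.0420 to 0.0439 in D6DMSO and 0.0946 to 0.157 in D0. A level near those values rests on a few reads. Where a call changed under another way of processing, the text names it with its adjusted p in parentheses and gives the range over all alternatives run for that gene. Thinning means drawing every library down to the smallest scaled library size. No transcript lengths were used, so levels are compared between groups and never between genes.

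At day 3, 33 of the 43 genes differed between D3RA and D3DMSO (limma on all genes, adjusted p below 0.05), 23 of them higher and 10 lower, where 62.1% of all genes of the table were called, 30.7% higher and 31.4% lower. At day 6, 35 of the 43 differed between D6RA and D6DMSO, with 32 higher and 3 lower, against 65.8% of all genes, 32.6% higher and 33.1% lower. The share called was thus 76.7% of the set at day 3 and 81.4% at day 6, near that of the whole table, and the calls were mostly upward. The median log2 fold change of the set was 1.43 at day 3 and 2.91 at day 6, beside medians of -0.01 and -0.02 over all genes. With genes that had 0 counts in D3DMSO set to their lower bound, the day 3 median was 1.42. Every gene of the table reached 1 CPM in at least 3 libraries, so a gene is in this count only because some group had it. For 8 of the 43, only 1 group was at 1 CPM or more in all its libraries. That group was D6RA for 5 of them, Chrm3, Gria1, Grm3, Slc17a6 and Slc32a1. The rise of these 5 with RA at day 6 is thus partly tied to their being in the table. Other genes, Gria2, Glra1 and Grm2 among them, reached 1 CPM in RA libraries only. Their rise with RA is likewise tied to their being in the table.

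Both days called 22 genes higher with RA, which is 51.2% of the set and compares with 18.9% of the table. Another 5 genes, Gria4, Grin1, Grik3 and Gabra3 among them, were lower at day 3 and higher at day 6, which is 11.6% of the set and 3.36% of the table. Gria4 kept both calls in every alternative. The day 3 call was lost in 2 of 16 alternatives for Grin1, 10 of 17 for Grik3 and 7 of 17 for Gabra3. Only Chrnb1 and Gabre were lower at both days, which is 4.65% of the set and 19.2% of the table. The libraries of RA and DMSO did not overlap for 31 of the 43 genes at day 3 (58.5% of all genes) and for 39 at day 6 (80.3% of all genes). D6RA had the highest mean of the 5 groups for 28 genes, D3RA for 7, D0 for 4, D6DMSO for 3 and D3DMSO for 1. Genes at 1 CPM or more in all 3 libraries numbered 27 in D3RA, 38 in D6RA, 22 in D3DMSO, 23 in D6DMSO and 23 in D0.

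**Figure D1:**
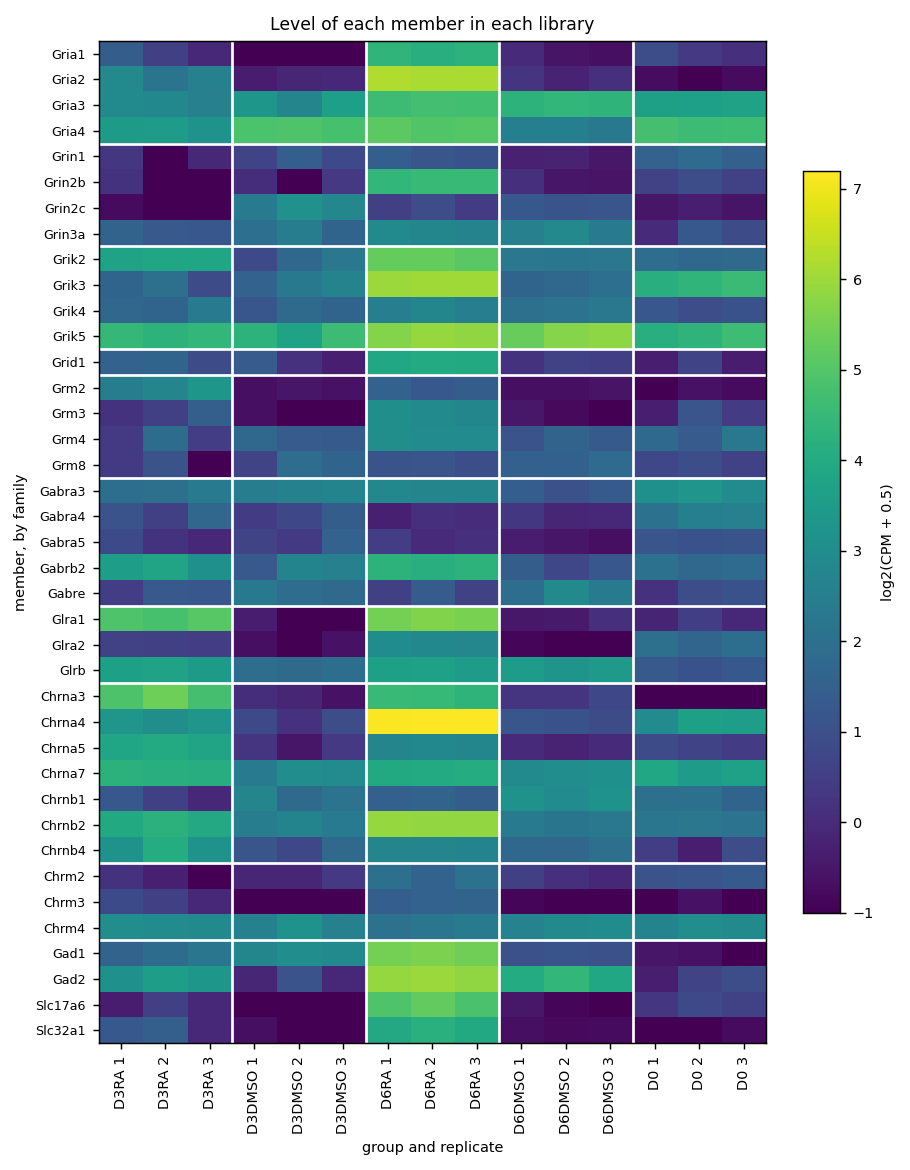
Level of 39 of the genes in each of the 15 libraries, by family, with colour giving log2 of CPM + 0.5 (yellow is high); rows are genes and columns are libraries in their groups. D6RA has the highest mean in its row for 25 of them, while Chrna3, Chrna5, Chrna7, Chrnb4, Chrm4 and Grm2 have theirs in D3RA.

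**Figure D2:**
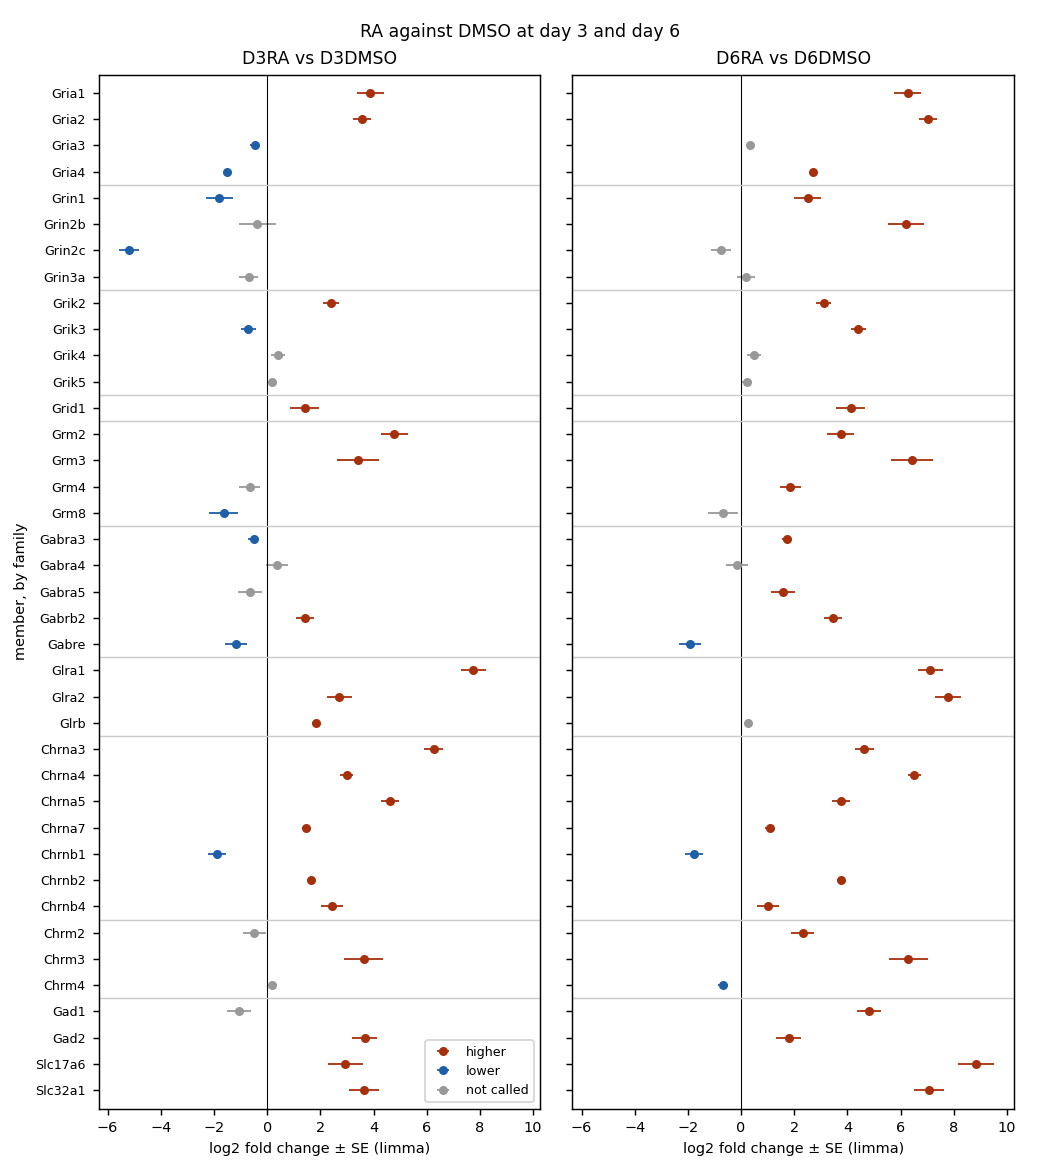
Log2 fold change of RA over DMSO for 39 of the genes at day 3 and day 6, with bars of 1 SE from limma; red points were called higher, blue lower and grey not called at an adjusted p below 0.05. Of those drawn, 20 were called higher and 9 lower at day 3, and 28 higher and 3 lower at day 6, and Gria4, Grin1, Grik3 and Gabra3 lie below 0 at day 3 and above it at day 6.

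General neuron markers moved with the same groups. Of the 15 genes on that list, 13 rose at day 3 and 15 at day 6 with RA, and their summed level was 1317 to 1639 CPM in D3RA, 4248 to 4536 in D6RA, 189 to 256 in D3DMSO, 64.0 to 67.4 in D6DMSO and 439 to 479 in D0. Markers of glia and neural crest, 9 of 15 in the table, summed to 185 to 216 CPM in D3RA and 530.2 to 534 in D6RA, against 174 to 227 in D3DMSO, 124 to 166 in D6DMSO and 121 to 139 in D0. Of these 9, 2 were called higher with RA and 7 lower at day 3 (median log2 fold change -1.70), and 3 higher and 4 lower at day 6 (median -0.54). Beside the neuron and the glia list, 30.7% of all genes were called higher and 31.4% lower at day 3, and 32.6% higher and 33.1% lower at day 6. Pluripotency markers, 10 of 12 in the table, summed to 65.1 to 70.8 CPM in D3RA and 12.7 to 16.4 in D6RA. Their sum was 1108 to 1620 CPM in D3DMSO, 456 to 506 in D6DMSO and 2766 to 3139 in D0. The part of these in the receptor values was not tested, and in bulk RNA fewer cells of a type and less RNA per cell cannot be told apart.

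Among the AMPA receptor subunits, which carry most fast excitation, Gria1, Gria2 and Gria4 rose with RA at day 6, and at day 3 Gria1 and Gria2 rose while Gria3 and Gria4 fell. Gria2 (ENSMUSG00000033981), the subunit that keeps AMPA channels from passing calcium, was at 6.83, 3.91 and 5.48 CPM in the D3RA libraries, against 0.276, 0.411 and 0.465 in D3DMSO. In the D6RA libraries it stood at 73.3, 71.6 and 70.8 CPM, against 0.702, 0.378 and 0.569 in D6DMSO, and the D0 libraries held 0.103, 0 and 0.0946. Every RA library was above every DMSO library on its day, and the D6RA libraries lay together far above all others. The difference was 3.57 ± 0.34 on the log2 scale at day 3 (limma, adjusted p = 1.08e-07) and 7.02 ± 0.34 at day 6 (adjusted p = 1.19e-11), and D6RA was also above D3RA (log2 fold change 3.73 ± 0.34, adjusted p = 6.02e-08).

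The upstream sequence of Gria2 is shown with that of Gad2, which makes GABA, because both hold the same rare motif. It is AGCACC and GGACAGC with any 2 bases between them, the core of the element known as RE1, to which the repressor REST binds in genes of neurons. The motif was chosen after the Gria2 promoter had been read, and both strands were searched. Windows of 250 bases before to 50 bases after the start, from RefSeq on GRCm38.p6, were found for 32 of the 43 genes. The motif was in 10 of the 32851 windows of all genes, or 0.0304%, and those of Gria2 and Gad2 are among these 10. Its shorter part GGACAGC was in 5 of the 39 windows of the set and in 6.56% of all windows. Capitals mark the match, which starts 171 bases before the start of Gria2, on the reverse strand of the gene, and 163 bases before that of Gad2. A match is a description of the letters and not evidence of a bound site. The 250 bases before the start of Gria2 (chr3:80802836-80803085, minus strand) and of Gad2 (chr2:22622077-22622326, plus strand) read, 5′ to 3′:
Gria2: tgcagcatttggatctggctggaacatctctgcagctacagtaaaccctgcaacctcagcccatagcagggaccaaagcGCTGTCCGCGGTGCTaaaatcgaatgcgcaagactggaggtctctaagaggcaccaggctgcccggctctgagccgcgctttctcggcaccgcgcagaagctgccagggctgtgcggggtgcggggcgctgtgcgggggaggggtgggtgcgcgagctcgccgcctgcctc
Gad2: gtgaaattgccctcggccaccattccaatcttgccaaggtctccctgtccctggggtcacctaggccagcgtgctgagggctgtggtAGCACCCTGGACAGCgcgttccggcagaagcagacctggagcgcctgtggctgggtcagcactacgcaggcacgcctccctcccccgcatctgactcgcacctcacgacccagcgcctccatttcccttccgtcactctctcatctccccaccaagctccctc

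Gria4 (ENSMUSG00000025892), an AMPA subunit with fast kinetics, changed direction between the days. It was at 10.6, 10.7 and 8.68 CPM in D3RA, against 28.7, 30.0 and 27.7 in D3DMSO, and fell (log2 fold change -1.52 ± 0.11, adjusted p = 4.44e-09). At day 6 it was at 34.7, 30.8 and 32.0 CPM in D6RA, against 5.26, 5.29 and 4.46 in D6DMSO, and rose (log2 fold change 2.70 ± 0.11, adjusted p = 1.72e-12). The libraries of RA and DMSO were apart on both days, in opposite order, and D0 lay near D3DMSO and D6RA at 26.9, 24.1 and 24.4 CPM. The difference between the days was 4.21 ± 0.16 on the log2 scale (limma interaction, adjusted p = 4.32e-12).

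Gria1, a subunit prominent in the forebrain, was at 1.21 ± 0.887 CPM (SD, n = 3 for this and later means) in D3RA and had 0 counts in all of D3DMSO, at least 10.7-fold higher (limma adjusted p = 5.53e-06). In D6RA it was at 18.8 ± 1.30 CPM, against 0.261 ± 0.193 in D6DMSO (log2 fold change 6.26 ± 0.51, adjusted p = 1.14e-08). Gria3 was at 6.31 ± 0.743 CPM in D3RA and 9.15 ± 2.83 in D3DMSO, a call (log2 fold change -0.47 ± 0.17, adjusted p = 0.0248) whose libraries overlapped. That call was lost with voom weights (0.0813), after thinning (0.276), with only the compared groups fitted (0.159), with only D0 and D3 libraries fitted (0.0895), without D3RA replicates 2 and 3 (0.233) and without D3DMSO replicate 1 or 3 or D3RA replicate 3 (0.0707 to 0.159) (range 1.78e-04 to 0.276). In D6RA Gria3 was at 25.4 ± 1.07 CPM, beside 20.0 ± 1.15 in D6DMSO (log2 fold change 0.35 ± 0.17, adjusted p = 0.0871), which did not pass. It passed with voom weights (8.27e-04), after thinning (0.0402) and with only the compared groups fitted (9.80e-04) (range 8.27e-04 to 0.259).

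NMDA receptors, the coincidence detectors of synapses, need the Grin1 subunit and take a second subunit such as Grin2b, the main partner before birth. Grin2b (ENSMUSG00000030209) was at 21.3, 22.4 and 22.3 CPM in D6RA, against 0.570, 0.210 and 0.175 in D6DMSO (log2 fold change 6.20 ± 0.68, adjusted p = 4.55e-07). The libraries of every other group were below 2 CPM, with 0.638, 0 and 0 in D3RA, 0.552, 0 and 0.775 in D3DMSO and 1.03, 1.42 and 1.04 in D0. At day 3 the difference between RA and DMSO was -0.37 ± 0.68 on the log2 scale and did not pass (adjusted p = 0.662). The day 6 difference exceeded it by 6.56 ± 0.96 (limma interaction, adjusted p = 3.07e-05).

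Grin1 (ENSMUSG00000026959) stayed low in every group. It was at 2.22, 1.80 and 1.60 CPM in D6RA, against 0.351, 0.378 and 0.219 in D6DMSO, and rose (log2 fold change 2.51 ± 0.50, adjusted p = 3.12e-04). At day 3 it was at 0.729, 0 and 0.457 CPM in D3RA, against 1.10, 2.26 and 1.24 in D3DMSO, and fell (log2 fold change -1.80 ± 0.50, adjusted p = 0.00515), with 9 counts in all of D3RA. That day 3 call was lost after thinning (0.113) and without D3RA replicates 2 and 3 (0.0900) (range 0.00198 to 0.113). The D0 libraries, at 2.46, 3.15 and 2.36 CPM, were above those of all other groups, by a small margin over the highest of D3DMSO and D6RA.

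Grin2c (ENSMUSG00000020734), best known from the adult cerebellum, followed DMSO at day 3. D3RA held 1, 0 and 0 counts, or 0.0911, 0 and 0 CPM, against 4.56, 8.42 and 6.51 CPM in D3DMSO, 101-fold lower by summed counts (95% counting interval 17.9 to 4041) (limma adjusted p = 3.45e-09). D0 stood at 0.205, 0.315 and 0.189 CPM, so the D3DMSO libraries were above both other early groups, and D3DMSO was above D0 by 4.47 ± 0.38 on the log2 scale (adjusted p = 4.75e-08). At day 6 the levels were 0.960, 1.43 and 0.845 CPM in D6RA and 1.89, 1.68 and 1.79 in D6DMSO, a difference that did not pass (log2 fold change -0.76 ± 0.38, adjusted p = 0.0875). It passed without the variance trend (0.0293), with voom weights (0.00559) and with only the compared groups fitted (0.0126) (range 0.00559 to 0.288). Grin3a, a subunit that lowers the calcium flow of NMDA channels, was at 2.11 ± 0.386 CPM in D3RA and 3.67 ± 1.16 in D3DMSO, and at 6.35 ± 0.536 in D6RA and 5.63 ± 1.04 in D6DMSO, and passed on neither day (adjusted p = 0.0997 and 0.669).

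**Figure D3:**
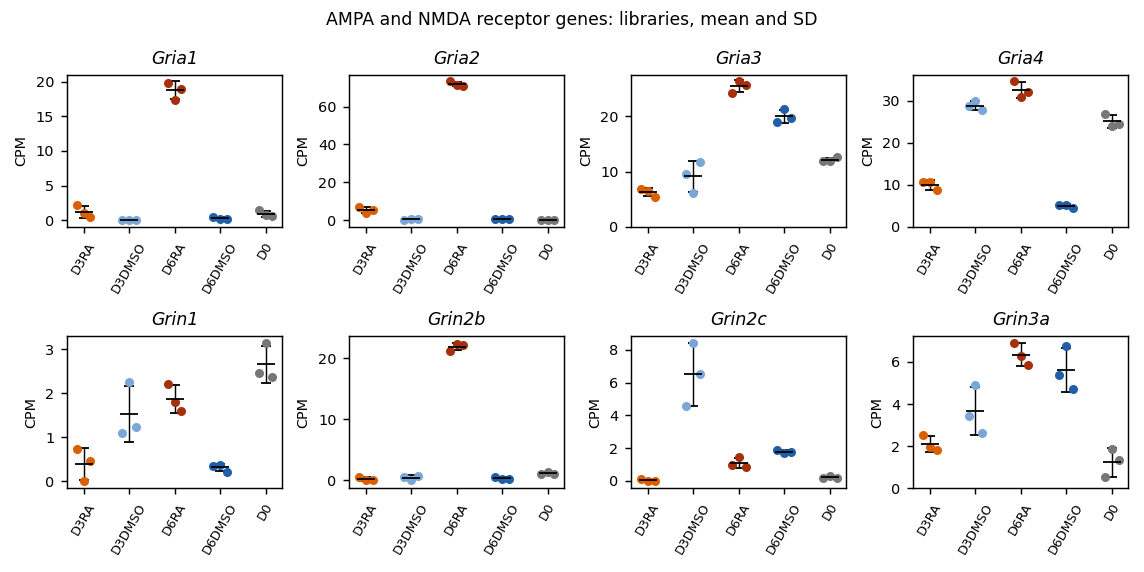
Level in CPM on a linear axis of ionotropic glutamate receptor genes in each library, grouped as D3RA, D3DMSO, D6RA, D6DMSO and D0; points are libraries, the dash is the mean and the bar its SD. Grin2b reaches 21.3 to 22.4 CPM in D6RA and stays below 2 CPM in the other groups, and Gria4 is lower with RA at day 3 and higher at day 6.

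Of the kainate receptor subunits, which adjust release and excitability, Grik3 (ENSMUSG00000001985) had the widest swing. D6RA held 62.5, 65.4 and 64.5 CPM, against 2.63, 2.94 and 3.50 in D6DMSO (log2 fold change 4.41 ± 0.29, adjusted p = 6.64e-10). On day 3 the gene was at 2.64, 3.58 and 1.37 CPM in D3RA, against 2.49, 4.52 and 5.89 in D3DMSO, and D0 was at 17.6, 20.3 and 23.7. D0 therefore stood above both day 3 groups and below D6RA, while the day 3 groups overlapped. The day 3 call (log2 fold change -0.71 ± 0.29, adjusted p = 0.0424) was lost without the variance trend (0.0696), with voom weights (0.183), after thinning (0.573), with only the compared groups fitted (0.181), with only D0 and D3 libraries fitted (0.0979), without D3RA replicates 2 and 3 (0.137) and without D3DMSO replicate 2 or 3 or D3RA replicate 1 or 3 (0.0619 to 0.238) (range 0.00270 to 0.573).

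Grik2 was at 13.5 ± 0.707 CPM in D3RA against 2.82 ± 1.55 in D3DMSO (log2 fold change 2.39 ± 0.29, adjusted p = 1.86e-06), and at 36.5 ± 2.51 in D6RA against 4.22 ± 0.0660 in D6DMSO (log2 fold change 3.10 ± 0.29, adjusted p = 5.40e-08). Grik4 and Grik5, which bind kainate tightly and work only beside other subunits, passed on neither day. Grik5 was at 20.5 ± 1.16 CPM in D3RA and 18.7 ± 5.81 in D3DMSO, and at 55.6 ± 4.02 in D6RA and 48.6 ± 8.93 in D6DMSO (adjusted p = 0.418 and 0.348 by limma). Grik4 was at 3.30 ± 1.10 CPM in D3RA and 2.50 ± 0.652 in D3DMSO, and at 5.55 ± 0.694 in D6RA and 3.93 ± 0.373 in D6DMSO (adjusted p = 0.192 and 0.106). The day 6 difference of Grik4 passed with voom weights (0.00301) and with only the compared groups fitted (0.00644) (range 0.00301 to 0.278).

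The delta receptors are relatives of the glutamate channels that organise synapses. Grid1 was at 15.1 ± 0.434 CPM in D6RA against 0.862 ± 0.182 in D6DMSO (log2 fold change 4.12 ± 0.54, adjusted p = 3.41e-06). On day 3 Grid1 was at 2.15 ± 0.675 in D3RA against 0.999 ± 0.941 in D3DMSO (log2 fold change 1.41 ± 0.54, adjusted p = 0.0315), with overlapping libraries, and that call was lost after thinning (0.230), with only the compared groups fitted (0.0725), with only D0 and D3 libraries fitted (0.0842), without D3RA replicates 2 and 3 (0.109) and without D3DMSO replicate 2 or 3 or D3RA replicate 1 or 2 (0.0779 to 0.177) (range 0.00158 to 0.230).

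The metabotropic glutamate receptors with a row, Grm2, Grm3, Grm4 and Grm8, all couple to G proteins that lower cyclic AMP. Grm2 (ENSMUSG00000023192), mostly found on presynaptic terminals, was highest at day 3 with RA. D3RA held 4.92, 6.19 and 9.59 CPM, against 0.138, 0.205 and 0.155 in D3DMSO, 35.8-fold higher by summed counts (95% counting interval 11.9 to 177) (limma adjusted p = 4.87e-07). D6RA held 2.52, 1.88 and 2.19 CPM, against 0.132, 0.126 and 0.175 in D6DMSO (log2 fold change 3.74 ± 0.51, adjusted p = 5.98e-06), and D0 0, 0.157 and 0.0946. The D3RA libraries were above those of every other group, and D6RA fell below D3RA by -1.62 ± 0.51 on the log2 scale (adjusted p = 0.0101). That fall was lost after thinning (0.145) and without D3RA replicates 2 and 3 (0.195) (range 1.66e-05 to 0.195).

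Grm3 and Grm4 were highest in D6RA, at 7.06 ± 0.897 and 7.42 ± 0.314 CPM, against 0.101 ± 0.111 and 2.07 ± 0.472 in D6DMSO (limma, adjusted p = 1.50e-06 and 6.31e-04). At day 3 Grm3 was at 1.30 ± 0.869 CPM in D3RA, with 1 count in all of D3DMSO, a call (adjusted p = 0.00118) lost after thinning (0.0766) and without D3RA replicates 2 and 3 (0.0694) (range 6.43e-05 to 0.0766). Grm4 did not pass at day 3, at 1.66 ± 1.38 CPM in D3RA and 2.32 ± 0.501 in D3DMSO (adjusted p = 0.165), and passed after thinning (0.0399), without D3RA replicates 2 and 3 (0.00511) and without D3RA replicate 2 (0.00251) (range 0.00251 to 0.589). Grm8 was at 0.816 ± 0.814 CPM in D3RA and 2.34 ± 1.12 in D3DMSO (log2 fold change -1.64 ± 0.55, adjusted p = 0.0163), a call with overlapping libraries that was lost after thinning (0.232), with only the compared groups fitted (0.0775) and without D3DMSO replicate 2 or 3 or D3RA replicate 3 (0.0522 to 0.0968) (range 0.00102 to 0.232). At day 6 Grm8 was at 1.62 ± 0.154 CPM in D6RA and 2.61 ± 0.433 in D6DMSO and did not pass (log2 fold change -0.68 ± 0.55, adjusted p = 0.294). It passed with voom weights (0.0143) and with only the compared groups fitted (0.00554) (range 0.00554 to 0.482).

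GABA-A receptors are built from alpha, beta and usually gamma subunits, of which the alpha subunits set the pharmacology of the channel. Gabra5 (ENSMUSG00000055078), an alpha subunit known from hippocampal neurons, did not pass at day 3, at 1.28, 0.651 and 0.457 CPM in D3RA and 1.10, 0.821 and 2.48 in D3DMSO (log2 fold change -0.64 ± 0.45, adjusted p = 0.228). At day 6 the libraries held 0.894, 0.492 and 0.564 CPM in D6RA, against 0.263, 0.210 and 0.131 in D6DMSO (log2 fold change 1.58 ± 0.45, adjusted p = 0.00500), a call lost after thinning (0.358) (range 1.38e-04 to 0.358). The D0 libraries, at 1.74, 1.57 and 1.70 CPM, were above those of both day 6 groups. Its span in RefSeq is not free of overlap with other annotation, and whether reads were counted by strand is not given in the sources used here, so some of its few reads may not be its own.

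Among the other GABA-A genes, Gabrb2 was higher with RA on both days, at 11.5, 13.4 and 8.22 CPM in D3RA against 1.93, 5.95 and 5.42 in D3DMSO (log2 fold change 1.43 ± 0.34, adjusted p = 0.00138) and 18.6 ± 1.06 in D6RA against 1.72 ± 0.497 in D6DMSO (log2 fold change 3.46 ± 0.34, adjusted p = 9.44e-08). Gabra3, an alpha subunit of early neurons, was at 6.32 ± 0.287 CPM in D6RA against 1.93 ± 0.348 in D6DMSO (log2 fold change 1.71 ± 0.19, adjusted p = 5.35e-07). Its lower level at day 3, 3.84 ± 0.639 CPM in D3RA against 5.56 ± 0.466 in D3DMSO (adjusted p = 0.0274), was lost after thinning (0.734), with only the compared groups fitted (0.128), with only D0 and D3 libraries fitted (0.0624) and without D3DMSO replicate 2 or 3 or D3RA replicate 1 or 2 (0.0515 to 0.0991) (range 0.00805 to 0.734).

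Gabre, a less common subunit, was lower with RA, at 1.35 ± 0.640 CPM in D6RA against 5.05 ± 1.89 in D6DMSO (log2 fold change -1.92 ± 0.42, adjusted p = 7.58e-04). At day 3 it was at 1.56 ± 0.569 CPM in D3RA against 3.60 ± 0.715 in D3DMSO (log2 fold change -1.18 ± 0.42, adjusted p = 0.0235), and that call was lost after thinning (0.399) and without D3DMSO replicate 1 or D3RA replicate 1 (0.0768 and 0.125) (range 0.00910 to 0.399). Gabra4 was highest in D0, at 4.81 ± 0.968 CPM, and passed on neither day between the treatments, at 1.79 ± 0.891 in D3RA and 1.41 ± 0.688 in D3DMSO, and 0.479 ± 0.130 in D6RA and 0.534 ± 0.183 in D6DMSO (limma, adjusted p = 0.477 and 0.771).

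Glycine receptors, the inhibitory channels of spinal cord and brainstem, had all 3 genes with a row higher with RA at day 3, and 2 of them at day 6. Glra1 (ENSMUSG00000000263), the adult alpha subunit, was at 30.0, 27.4 and 32.9 CPM in D3RA with 2, 0 and 0 counts in D3DMSO, 277-fold higher by summed counts (95% counting interval 76.3 to 2296) (limma adjusted p = 4.41e-10). In D6RA it was at 44.7, 49.7 and 46.0 CPM, against 0.219, 0.252 and 0.569 in D6DMSO (log2 fold change 7.11 ± 0.47, adjusted p = 7.82e-10). D0 lay below 1 CPM at 0.410, 0.944 and 0.473. Every RA library was thus far above every other library, at day 3 as at day 6, and the difference between D6RA and D3RA did not pass (log2 fold change 0.63 ± 0.47, adjusted p = 0.242).

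Glra2 (ENSMUSG00000018589), the fetal alpha subunit, had its highest level in D6RA. D6RA held 7.41, 6.64 and 6.48 CPM, against 1, 0 and 0 counts in D6DMSO, 476-fold higher by summed counts (95% counting interval 85.1 to 18829) (limma adjusted p = 2.41e-10). Earlier, at day 3, it was at 1.00, 0.977 and 0.914 CPM in D3RA, against 0.138, 0 and 0.155 in D3DMSO (adjusted p = 1.02e-04). D0 held 3.59, 2.67 and 3.40 CPM, more than either day 3 group, and D3DMSO was 30.6-fold lower by summed counts (95% counting interval 8.23 to 257) than D0 (limma adjusted p = 1.09e-06). Glrb, the beta subunit that ties the channel to gephyrin at synapses, was at 11.7 ± 1.13 CPM in D3RA against 3.27 ± 0.170 in D3DMSO (log2 fold change 1.82 ± 0.15, adjusted p = 2.21e-08). At day 6 it was at 12.2, 12.5 and 11.1 CPM in D6RA and 10.9, 8.99 and 10.4 in D6DMSO, which did not pass (log2 fold change 0.25 ± 0.15, adjusted p = 0.160). It passed without the variance trend (0.0495), with voom weights (0.0128) and with only the compared groups fitted (0.0381) (range 0.0128 to 0.613). D6DMSO was above D3DMSO by 1.59 ± 0.15 (adjusted p = 2.53e-07).

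Of the 7 nicotinic receptor genes, 6 were higher with RA on both days and Chrnb1, the beta subunit of muscle, was lower on both. Chrna3, Chrna5 and Chrnb4 are the subunits of the receptor of autonomic ganglia, and they lie next to each other on chromosome 9. Chrna3 (ENSMUSG00000032303) was at 29.6, 41.0 and 26.9 CPM in D3RA, against 0.552, 0.411 and 0.155 in D3DMSO (log2 fold change 6.26 ± 0.37, adjusted p = 3.04e-10). At day 6 it was at 22.4, 21.8 and 19.7 CPM in D6RA, against 0.702, 0.672 and 1.23 in D6DMSO (log2 fold change 4.64 ± 0.37, adjusted p = 8.34e-09). D0 held 0 counts in its 3 libraries, so that D3RA was at least 279-fold higher. The RA libraries were well apart from all others, and D6RA and D3RA did not differ by the test (log2 fold change -0.59 ± 0.37, adjusted p = 0.164).

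Chrna5 (ENSMUSG00000035594) was at 13.6, 15.6 and 13.2 CPM in D3RA, against 0.690, 0.205 and 0.775 in D3DMSO (log2 fold change 4.61 ± 0.33, adjusted p = 3.69e-09), and at 6.19, 6.60 and 6.23 in D6RA, against 0.482, 0.378 and 0.481 in D6DMSO (log2 fold change 3.77 ± 0.33, adjusted p = 3.07e-08). D0 was at 1.33, 1.10 and 0.851 CPM. Each D3RA library was above each D6RA library, and the day 6 level was lower by -1.17 ± 0.33 on the log2 scale (limma adjusted p = 0.00531), a call lost after thinning (0.169) and without D3RA replicates 2 and 3 (0.0703) (range 2.20e-07 to 0.169). In RefSeq the spans of Chrna5 and Chrna3 share 1304 bases, and how the counting used strand is not given in the sources used here, so some reads may belong to either gene.

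Chrnb4 was at 8.65, 16.3 and 8.68 CPM in D3RA, against 1.80, 1.23 and 3.10 in D3DMSO (log2 fold change 2.44 ± 0.41, adjusted p = 6.34e-05), with 0.923, 0.315 and 1.42 in D0. In D6RA it was at 6.16, 6.11 and 6.04 CPM, against 2.81, 2.73 and 3.59 in D6DMSO (log2 fold change 1.01 ± 0.41, adjusted p = 0.0381). The libraries were apart on both days, yet the day 6 call was lost after quantile normalization (0.0582), without the variance trend (0.0585), after thinning (0.483) and without D6DMSO replicate 1 or 2 or D6RA replicate 1, 2 or 3 (0.0748 to 0.0974) (range 5.83e-05 to 0.483). Of the transcription factors of autonomic and sensory neurons, 9 of 12 on that list were in the table. At day 3, 5 of them were higher and 2 lower with RA (30.7% and 31.4% of all genes). At day 6, 4 of them were higher and 5 lower (32.6% and 33.1% of all genes). Their summed level was 63.7 to 79.9 CPM in D3RA and 202 to 216 in D6RA, against 7.75 to 8.83 in D3DMSO, 50.9 to 56.5 in D6DMSO and 10.3 to 12.9 in D0, and their part in the levels of these 3 genes was not tested.

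The upstream sequences of the 3 neighbours are shown because the genes had their highest means together in D3RA, a trait that Chrna7 shared. Between D6RA and D3RA the fall of Chrna5 was called, while Chrna3, Chrnb4 and Chrna7 did not pass. Capitals mark GGGCGG or its reverse complement, the GC box to which factors of the Sp family bind, searched on both strands. It was found once before the start of Chrna3, 13 bases from it, and 4 times in the second of 2 RefSeq windows of Chrna5, and in neither the first Chrna5 window nor that of Chrnb4. This short motif was in 23 of the 39 windows of the set and in 35.7% of all windows. The 250 bases before the start, from RefSeq on GRCm38.p6, are those of Chrna3 (chr9:55026563-55026812, minus strand), Chrna5 in its second window (chr9:54981238-54981487, plus strand) and Chrnb4 (chr9:55048545-55048794, minus strand), 5′ to 3′:
Chrna3: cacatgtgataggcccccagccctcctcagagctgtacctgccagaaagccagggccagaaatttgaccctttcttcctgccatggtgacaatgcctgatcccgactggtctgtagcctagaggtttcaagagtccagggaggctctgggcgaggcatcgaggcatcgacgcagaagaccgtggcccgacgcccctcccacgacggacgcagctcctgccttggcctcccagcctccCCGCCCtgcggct
Chrna5: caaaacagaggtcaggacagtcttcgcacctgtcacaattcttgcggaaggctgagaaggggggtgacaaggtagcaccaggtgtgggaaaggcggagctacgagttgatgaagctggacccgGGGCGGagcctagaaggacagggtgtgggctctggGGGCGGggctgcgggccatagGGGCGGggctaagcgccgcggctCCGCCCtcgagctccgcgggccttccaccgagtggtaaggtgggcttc
Chrnb4: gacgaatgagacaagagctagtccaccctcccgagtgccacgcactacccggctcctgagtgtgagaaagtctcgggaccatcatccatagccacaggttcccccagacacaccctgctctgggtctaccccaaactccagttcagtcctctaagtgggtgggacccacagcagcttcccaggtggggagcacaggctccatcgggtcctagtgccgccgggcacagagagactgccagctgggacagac

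Chrna4 and Chrnb2, which together form the main nicotinic receptor of the brain, were higher in D6RA than in D3RA. Chrna4 (ENSMUSG00000027577) was at 141, 146 and 146 CPM in D6RA, against 1.80, 1.60 and 1.31 in D6DMSO (log2 fold change 6.52 ± 0.24, adjusted p = 4.21e-13). At day 3 it was at 9.20, 7.82 and 9.14 CPM in D3RA, against 1.24, 0.616 and 1.39 in D3DMSO (log2 fold change 2.99 ± 0.24, adjusted p = 1.57e-08). D0 was at 7.28, 12.3 and 11.3 CPM, on both sides of the D3RA libraries, so the day 3 difference went with a level in D3DMSO below that of D0 (log2 fold change -3.18 ± 0.24, adjusted p = 1.50e-08).

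Chrnb2 was at 59.3, 58.0 and 57.9 CPM in D6RA, against 4.60, 4.07 and 4.38 in D6DMSO (log2 fold change 3.74 ± 0.13, adjusted p = 2.76e-13), and at 15.1, 18.9 and 15.1 in D3RA, against 4.97, 5.95 and 4.65 in D3DMSO (log2 fold change 1.65 ± 0.13, adjusted p = 1.76e-08). D6RA was above D3RA for both genes, by 4.03 ± 0.24 for Chrna4 and 1.83 ± 0.13 for Chrnb2 on the log2 scale (limma, adjusted p = 6.03e-10 and 5.82e-09). Chrna7, which forms channels of its own, was at 17.8 ± 1.04 CPM in D3RA against 6.52 ± 1.59 in D3DMSO (log2 fold change 1.47 ± 0.16, adjusted p = 7.91e-07), and at 15.8 ± 0.625 in D6RA against 7.53 ± 0.609 in D6DMSO (log2 fold change 1.07 ± 0.16, adjusted p = 2.09e-05). Its level in D0 was 12.7 ± 1.78 CPM.

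Chrnb1, which nerve-muscle junctions use, was at 1.12 ± 0.738 CPM in D3RA against 4.34 ± 1.55 in D3DMSO (log2 fold change -1.89 ± 0.32, adjusted p = 8.50e-05), and at 2.37 ± 0.175 in D6RA against 8.16 ± 0.829 in D6DMSO (log2 fold change -1.77 ± 0.32, adjusted p = 1.26e-04). The skeletal muscle markers in the table, 5 of 15, summed to 16.6 to 25.6 CPM in D3RA and 8.11 to 9.47 in D6RA, against 16.0 to 20.0 in D3DMSO, 55.4 to 67.5 in D6DMSO and 15.3 to 15.9 in D0. Cardiac muscle markers, 8 of 14, summed to 31.6 to 32.0 CPM in D6RA against 145 to 198 in D6DMSO. The part of muscle cells in the Chrnb1 level was not tested.

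**Figure D4:**
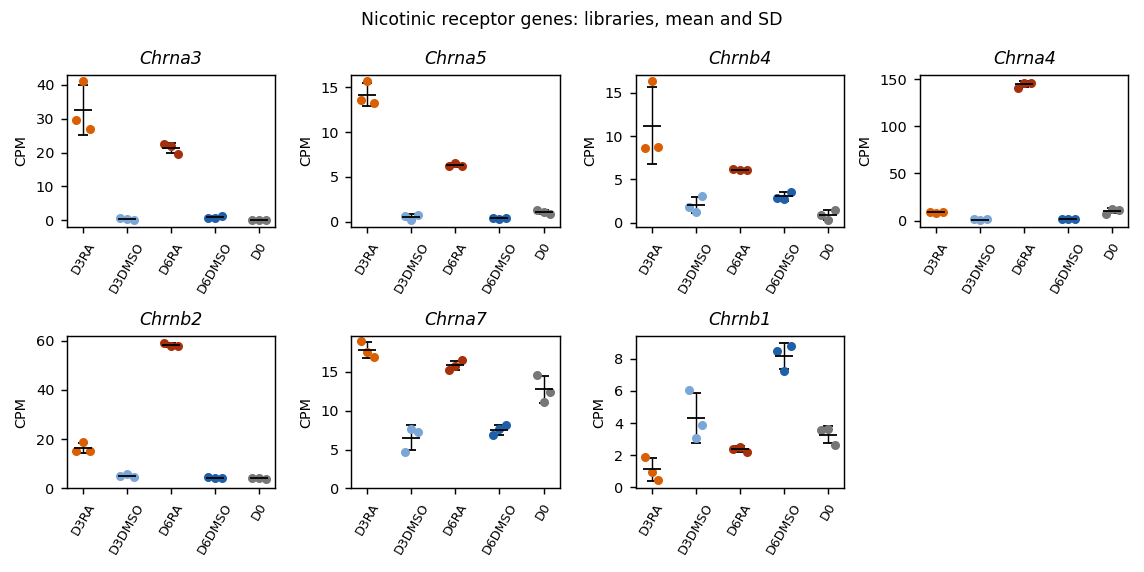
Level in CPM on a linear axis of the 7 nicotinic receptor genes in each library, grouped as D3RA, D3DMSO, D6RA, D6DMSO and D0; points are libraries, the dash is the mean and the bar its SD. Chrna3, Chrna5, Chrnb4 and Chrna7 have their highest mean in D3RA, Chrna4 and Chrnb2 in D6RA and Chrnb1 in D6DMSO.

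The muscarinic receptors, which pass the slower acetylcholine signal, stayed below 10 CPM in every library. Chrm3, which couples to calcium release, was at 2.42 ± 0.174 CPM in D6RA with 1 count in all of D6DMSO, 168-fold higher by summed counts (95% counting interval 29.8 to 6657) (limma adjusted p = 7.75e-07). At day 3 it was at 0.903 ± 0.414 CPM in D3RA with 0 counts in D3DMSO, at least 6.86-fold higher (adjusted p = 3.59e-04). Chrm2, the receptor of the heart, was at 3.26 ± 0.624 CPM in D6RA against 0.663 ± 0.272 in D6DMSO (log2 fold change 2.31 ± 0.43, adjusted p = 1.53e-04), and did not pass at day 3, at 0.321 ± 0.319 in D3RA and 0.533 ± 0.209 in D3DMSO (adjusted p = 0.337). Chrm4, an inhibitory receptor of the striatum, was at 4.16 ± 0.399 CPM in D6RA against 6.75 ± 0.889 in D6DMSO and fell (log2 fold change -0.69 ± 0.19, adjusted p = 0.00470), a call lost after thinning (0.144) (range 1.11e-04 to 0.144). On day 3 Chrm4 was at 7.22 ± 0.402 CPM in D3RA and 6.59 ± 1.94 in D3DMSO (adjusted p = 0.436). Its RefSeq span shares 31 bases with Mdk, which was at 142 ± 5.54 CPM in D6RA and 400 ± 43.8 in D6DMSO. At day 3 Mdk was at 884 ± 52.0 CPM in D3RA and 209 ± 30.5 in D3DMSO. How the counting used strand is not given in the sources used here, so some reads may belong to either gene.

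All 4 transmitter identity genes with a row were higher with RA at day 6, and at day 3 all but Gad1 were. Slc17a6 and Slc32a1 were at 1 CPM or more in all libraries of D6RA only, so their day 6 rise is partly tied to their being in the table. Slc17a6 (ENSMUSG00000030500), the vesicular glutamate transporter VGLUT2, was at 30.2, 36.8 and 28.2 CPM in D6RA, against 0.219, 0.0420 and 0 in D6DMSO (log2 fold change 8.83 ± 0.67, adjusted p = 4.62e-09). The D3RA libraries held 3, 3 and 1 counts and the D3DMSO libraries 0 in all, so that D3RA was at least 2.67-fold higher (limma adjusted p = 0.00119), a call lost after thinning (0.155) and without D3RA replicates 2 and 3 (0.0886) (range 6.58e-05 to 0.155). D0 was at 0.718, 1.26 and 1.04 CPM, where D3RA, at 0.273, 0.977 and 0.457 CPM, did not differ from it by the test (log2 fold change -0.72 ± 0.67, adjusted p = 0.352). The glutamate identity gene was thus near 1 CPM or less in every library outside D6RA.

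Slc32a1 (ENSMUSG00000037771), the vesicular transporter of GABA and glycine, was at 14.9, 18.1 and 15.2 CPM in D6RA, against 0.132, 0.0840 and 0.0875 in D6DMSO (log2 fold change 7.05 ± 0.57, adjusted p = 9.01e-09). The day 3 level was 1.91, 2.28 and 0.457 CPM in D3RA, with 1, 0 and 0 counts in D3DMSO, 33.2-fold higher by summed counts (95% counting interval 5.50 to 1354) (limma adjusted p = 3.10e-05), and D0 held 1 count. Its RefSeq span shares 3464 bases with the long noncoding RNA Gm14204, which was at 36.7 ± 0.889 CPM in D6RA and 0.319 ± 0.255 in D6DMSO. Reads of the 2 genes cannot be told apart there, since the sources used here do not say how the counting used strand.

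Gad2 (ENSMUSG00000026787), which makes GABA at synaptic terminals, was higher with RA on both days and was also present in D6DMSO. D6RA held 59.0, 61.5 and 56.3 CPM, against 16.0, 21.1 and 14.6 in D6DMSO (log2 fold change 1.79 ± 0.46, adjusted p = 0.00262). D3RA held 8.20, 11.4 and 9.59 CPM, against 0.414, 1.64 and 0.465 in D3DMSO (log2 fold change 3.67 ± 0.46, adjusted p = 3.15e-06), and D0 0.308, 1.10 and 1.42. RA libraries were above those of DMSO on both days, but the D6DMSO libraries were above all of D3RA, and D6DMSO was above D3DMSO by 4.47 ± 0.46 on the log2 scale (adjusted p = 6.09e-07).

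Gad1 (ENSMUSG00000070880), the form of the enzyme spread through the cell, did not rise with RA at day 3. It was at 2.55, 3.26 and 4.11 CPM in D3RA, against 6.21, 7.59 and 6.97 in D3DMSO, and the lower RA level did not pass (log2 fold change -1.05 ± 0.45, adjusted p = 0.0515) although no libraries overlapped. It passed after quantile normalization (0.0200), with an added count of 2 (0.00378), with voom weights (0.00112), with only the compared groups fitted (0.00878) and without D3RA replicate 3 (0.0460) (range 0.00112 to 0.156). Both exceeded D0, which held 2, 1 and 0 counts: D3RA was 25.7-fold higher by summed counts (95% counting interval 8.29 to 129), and D3DMSO was 60.8-fold higher by summed counts (95% counting interval 20.4 to 299). At day 6 the levels were 44.0, 47.3 and 42.2 CPM in D6RA, against 1.53, 1.68 and 1.53 in D6DMSO (log2 fold change 4.80 ± 0.45, adjusted p = 5.88e-08). The day 6 difference exceeded that of day 3 by 5.84 ± 0.63 (limma interaction, adjusted p = 1.07e-06).

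**Figure D5:**
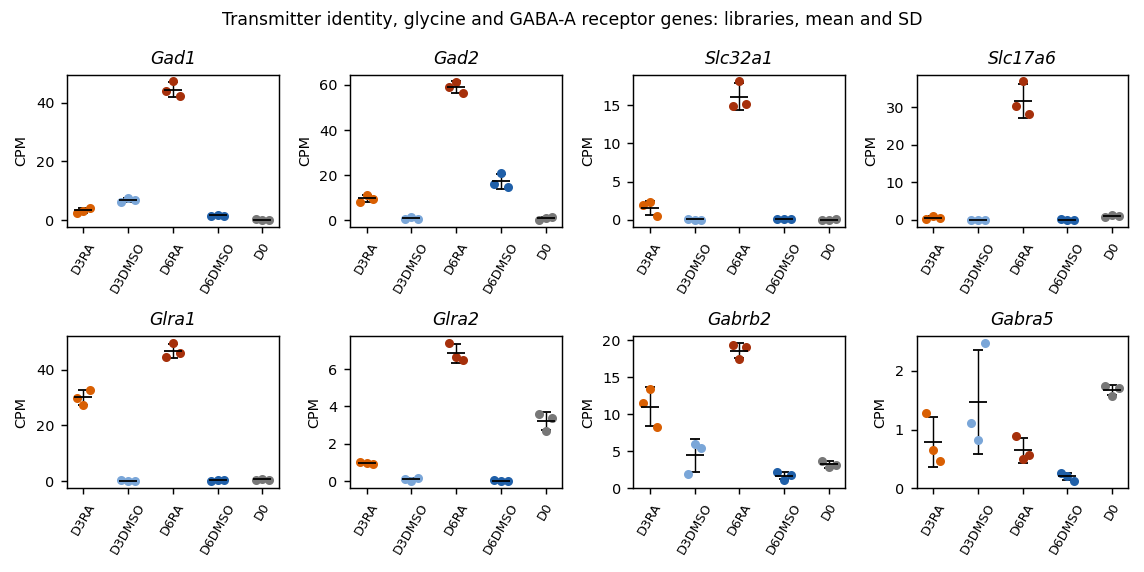
Level in CPM on a linear axis of GABA-A and glycine receptor genes and of transmitter identity genes in each library, grouped as D3RA, D3DMSO, D6RA, D6DMSO and D0; points are libraries, the dash is the mean and the bar its SD. Glra1 is high with RA on both days, while Slc17a6 and Slc32a1 reach 28.2 to 36.8 and 14.9 to 18.1 CPM in D6RA only.

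Set against undifferentiated cells, 33 of the 43 genes differed in D3RA, 21 higher and 12 lower, where 68.9% of all genes were called, 35.0% higher and 33.9% lower. D3DMSO differed from D0 for 25, 9 higher and 16 lower, where 56.1% of all genes were called, 28.2% higher and 27.8% lower. Libraries did not overlap for 33 of the 43 in D3RA against D0 (68.2% of all genes) and for 26 in D3DMSO against D0 (58.8% of all genes). Both comparisons use the same D0 libraries. Grik3 and Gabra4, both present in D0, were lower in both routes. The log2 fold change of Grik3 was -3.02 ± 0.29 in D3RA and -2.31 ± 0.29 in D3DMSO, and that of Gabra4 was -1.43 ± 0.42 and -1.79 ± 0.42 (limma, adjusted p at most 0.00685). The call of Gabra4 in D3RA was lost after thinning (0.105) (range 0.00135 to 0.105), and its call in D3DMSO was lost after thinning (0.0789) (range 4.36e-04 to 0.0789). Grin1 was below D0 in D3RA (log2 fold change -2.61 ± 0.50, adjusted p = 2.08e-04) and in D3DMSO the difference did not pass (log2 fold change -0.81 ± 0.50, adjusted p = 0.184).

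Between the days of RA, 33 of the 43 genes differed, 28 higher in D6RA and 5 lower, where 69.3% of all genes were called, 37.2% higher and 32.0% lower. Between the days of DMSO it was 21, 11 higher in D6DMSO and 10 lower, against 56.4% of all genes, 28.3% higher and 28.1% lower. Libraries did not overlap for 39 of the 43 in D6RA against D3RA (73.6% of all genes) and for 17 in D6DMSO against D3DMSO (63.1% of all genes). Among the 5 lower in D6RA were Chrna5, Grm2, Chrm4 and Gabra4. The 3 largest rises with RA were Grin2b at 6.22 ± 0.68, Slc17a6 at 5.65 ± 0.67 and Grik3 at 4.67 ± 0.29 on the log2 scale (limma, adjusted p at most 1.50e-06). Grin2b and Slc17a6 each had 7 counts in all of D3RA, so the size of their rise depends on the added count and on depth. Day cannot be told apart from the differences in depth and mitochondrial counts given above.

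The effect of RA over DMSO differed between the days for 29 of the 43 genes, 24 in the upward direction and 5 in the downward, where 48.5% of all genes were called, 25.4% upward and 23.1% downward. The median of this difference was 2.22 over the set and 0.04 over all genes. Among genes with more than 3 counts in each of the 4 groups, the largest were Grin2b at 6.56 ± 0.96, Gad1 at 5.84 ± 0.63 and Grik3 at 5.12 ± 0.41 on the log2 scale (limma, adjusted p at most 3.07e-05). Slc17a6, with no count in D3DMSO, was called upward too (limma adjusted p = 8.23e-05), but the size of its difference depends on the added count and on depth. That of Grin2b does as well, with 7 counts in D3RA and 9 in D3DMSO. Mitochondrial counts also differed between the treatments at day 6 and not at day 3, and their part was not tested.

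Receptors need partners, and a list of 53 auxiliary subunits, chaperones and postsynaptic scaffold genes had 45 in the table. At day 3, 24 of them were called higher with RA and 7 lower, or 68.9% in all beside 62.1% of the table (30.7% higher and 31.4% lower), with a median log2 fold change of 0.46. At day 6, 36 were higher and 3 lower, or 86.7% beside 65.8% of the table (32.6% higher and 33.1% lower), with a median of 1.44. The calls of this list were mostly upward on both days. Ly6h, a regulator of nicotinic receptors, was at 23.3 ± 1.73 CPM in D3RA against 0.356 ± 0.178 in D3DMSO (log2 fold change 5.80 ± 0.38, adjusted p = 1.22e-09), and at 27.5 ± 1.69 in D6RA against 0.203 ± 0.167 in D6DMSO (log2 fold change 7.19 ± 0.38, adjusted p = 4.59e-11). Lrrtm1, an organiser of excitatory synapses, was at 7.21 ± 0.341 CPM in D3RA with 0 counts in D3DMSO (limma adjusted p = 2.38e-08). Nlgn1, an adhesion protein of excitatory synapses, was at 10.7 ± 0.474 CPM in D6RA against 0.102 ± 0.0678 in D6DMSO (log2 fold change 6.60 ± 0.61, adjusted p = 5.75e-08).

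Few of these partners fell. Nptx2, a secreted pentraxin that gathers AMPA receptors, was at 0.321 ± 0.319 CPM in D3RA against 9.45 ± 3.33 in D3DMSO (log2 fold change -4.43 ± 0.33, adjusted p = 6.20e-09), and at 1.57 ± 0.279 in D6RA against 4.77 ± 0.305 in D6DMSO (log2 fold change -1.60 ± 0.33, adjusted p = 4.48e-04). Its day 6 call was lost after thinning (0.439) (range 1.53e-06 to 0.439). Olfm1, a secreted partner of AMPA receptors, was at 15.6 ± 2.70 CPM in D3RA against 55.1 ± 2.13 in D3DMSO (log2 fold change -1.82 ± 0.10, adjusted p = 1.60e-10), and went the other way at day 6, at 45.8 ± 1.49 CPM in D6RA against 16.5 ± 0.842 in D6DMSO (log2 fold change 1.47 ± 0.10, adjusted p = 1.39e-09). Dlg1, a scaffold also found outside neurons, was at 94.6 ± 1.60 CPM in D6RA against 210.4 ± 8.38 in D6DMSO (log2 fold change -1.15 ± 0.07, adjusted p = 4.40e-10).

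Genes that make, carry or break down transmitters outside the set were called in both directions. Of the 23 in the table from a list of 37, 8 were higher with RA and 8 lower at day 3. That was 69.6%, beside 62.1% of the table (30.7% higher and 31.4% lower). At day 6, 7 were higher and 11 lower, or 78.3% beside 65.8% of the table (32.6% higher and 33.1% lower). Slc6a5, the glycine transporter that marks glycine neurons, was at 2.65 ± 0.884 CPM in D3RA with 0 counts in D3DMSO (limma adjusted p = 7.64e-07), and at 51.5 ± 1.60 CPM in D6RA against 0.116 ± 0.127 in D6DMSO (log2 fold change 8.93 ± 0.56, adjusted p = 3.73e-10). Slc1a2, a glutamate transporter, was at 182 ± 5.78 CPM in D6RA against 1.63 ± 0.250 in D6DMSO (log2 fold change 6.79 ± 0.34, adjusted p = 1.90e-11). Th, the first enzyme of dopamine synthesis, was at 2.42 ± 0.681 CPM in D3RA with 2 counts in D3DMSO (adjusted p = 5.13e-05).

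On the lower side, Slc5a7, the choline carrier of cholinergic neurons, was at 0.322 ± 0.137 CPM in D3RA against 1.60 ± 0.627 in D3DMSO (log2 fold change -1.93 ± 0.50, adjusted p = 0.00295). Gls2, a glutaminase, was at 1.75 ± 1.25 CPM in D3RA against 5.61 ± 1.27 in D3DMSO (log2 fold change -1.91 ± 0.46, adjusted p = 0.00182). At day 6, Slc6a13, a GABA transporter found mostly outside neurons, was at 0.0865 ± 0.0686 CPM in D6RA against 4.27 ± 0.357 in D6DMSO (log2 fold change -5.58 ± 0.41, adjusted p = 2.97e-09). Ddc, which completes dopamine and serotonin, was lower at day 6, at 0.531 ± 0.219 CPM in D6RA against 5.51 ± 0.570 in D6DMSO (log2 fold change -3.43 ± 0.29, adjusted p = 2.00e-08), but higher at day 3, at 6.20 ± 0.720 CPM in D3RA against 2.08 ± 0.622 in D3DMSO (log2 fold change 1.59 ± 0.29, adjusted p = 1.77e-04).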

How the data were processed

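The deposited table holds log2 values per gene for 15 RNA libraries. Per the labels, libraries came from total RNA freed of ribosomal RNA with a stranded kit and were sequenced single end. The submitters' processing notes list STAR 2.6.0c, featureCounts, edgeR, limma, Trimmomatic 0.32, Bowtie2 2.2.9, FastQC 0.11.2 and SAMtools 0.1.19, with mm9, without saying which made this table; its filter and use of strand are not given in the sources used here.

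Undoing the log2 and taking off a count of 0.5 gave whole numbers (within 0.05) for 100% of values, so read counts were recovered; these counts and the deposited scale give CPM. That added 0.5 equals 0.0157 to 0.228 CPM, so log2 fold changes near 0 counts depend on depth. There, folds come from summed counts: against 0, a bound at 3 counts over the group; against 1 to 3, a ratio with a 95% interval for counting error only.

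All 14717 genes were fitted with limma 3.58.1 (variance trend, 5 group coefficients, 10 residual degrees of freedom, Benjamini-Hochberg). Libraries with the same replicate number did not deviate together (correlations -0.11 to 0.21, 2 of 18 over 0.1). The fit was tested on simulated data. Alternatives were other scalings and fits, a filter of 5 CPM in 3 libraries and an added count of 2. Libraries were also thinned to the smallest scaled library size, 2189364, and each was left out in turn. Chosen after seeing the data were fits of the D0 and D3 libraries alone and fits without D3RA replicates 2 and 3.

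The genes and lists were chosen with earlier results of these data known. Genes with values in every library were named by rule: those given as marks of the set, the key identity genes, and per comparison those with the largest called changes; Chrnb2 and Chrnb4 were added after their values were seen. Some genes of the set are not reported here by name or in figures; counts over the 43 include them. Sequences came from RefSeq promoter windows (GRCm38.p6), matched by symbol for 32 of the 43 genes. Figures were drawn with matplotlib 3.10.9 and tables handled with numpy 2.4.6 and pandas 2.3.3 (Python 3.11.15).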

Additional observations from a re-analysis of the deposited data

Results flagged for a closer look

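For 29 genes the RA minus DMSO difference at day 6 differed from that at day 3 by the limma interaction (adjusted p below 0.05, where 48.5% of all genes were called). Values are the day 6 difference less the day 3 difference, log2 ± SE, from 12 libraries, and are given for 27 of the genes; a positive value means that RA stood further above DMSO, or less far below it, at day 6.

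Among ionotropic glutamate receptor genes the value was 6.56 ± 0.96 for Grin2b, 5.12 ± 0.41 for Grik3, 4.46 ± 0.53 for Grin2c, 4.31 ± 0.71 for Grin1 and 4.21 ± 0.16 for Gria4. It was 3.45 ± 0.48 for Gria2, 2.71 ± 0.76 for Grid1, 2.38 ± 0.73 for Gria1 and 0.82 ± 0.24 for Gria3. Metabotropic receptors gave 3.02 ± 1.10 for Grm3 and 2.52 ± 0.57 for Grm4.

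For receptors of inhibition the value was 5.08 ± 0.67 for Glra2, 2.23 ± 0.27 for Gabra3, 2.22 ± 0.63 for Gabra5 and 2.02 ± 0.47 for Gabrb2, and negative for Glrb at -1.57 ± 0.21. Transmitter identity genes gave 5.89 ± 0.95 for Slc17a6, 5.84 ± 0.63 for Gad1, 3.40 ± 0.80 for Slc32a1 and a negative -1.88 ± 0.65 for Gad2.

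Of the 7 nicotinic genes, 2 were called positive, 2 negative and 3, Chrna5, Chrna7 and Chrnb1, were not called. The brain-type genes were positive, with 3.53 ± 0.34 for Chrna4 and 2.10 ± 0.19 for Chrnb2. Chrna3 and Chrnb4 were negative, with -1.62 ± 0.52 and -1.44 ± 0.58, while Chrna5, their neighbour on chromosome 9, did not pass. Muscarinic genes gave 2.80 ± 0.61 for Chrm2, 2.66 ± 1.02 for Chrm3 and -0.87 ± 0.27 for Chrm4.

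Chrm3, Glra2, Gria1, Grin2c, Grm3, Slc17a6 and Slc32a1 had 3 counts or fewer in at least 1 of the 4 groups, so the size of their value depends on the added count and on depth. That of Grin2b does as well, with 7 counts in D3RA and 9 in D3DMSO.

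Of these 29 calls, 17 held in every alternative. The call of Gad2 was lost without the variance trend (0.0532), without D3RA replicates 2 and 3 (0.139) and without D3DMSO replicate 1 or 3, D3RA replicate 2 or D6DMSO replicate 2 (0.0531 to 0.0632) (range 5.88e-04 to 0.139). That of Chrna3 was lost without D3RA replicates 2 and 3 (0.0900) and without D6DMSO replicate 3 (0.0536) (range 0.00635 to 0.0900), and that of Chrnb4 was lost without the variance trend (0.0737), after thinning (0.252), without D3RA replicates 2 and 3 (0.216) and without D3DMSO replicate 1 or 2, D3RA replicate 2, D6DMSO replicate 1, 2 or 3 or D6RA replicate 1, 2 or 3 (0.0645 to 0.125) (range 0.0144 to 0.252). That of Grm3 was lost after thinning (0.0789) and without D3DMSO replicate 1, D3RA replicate 1 or 2, D6DMSO replicate 3 or D6RA replicate 1, 2 or 3 (0.0527 to 0.0873) (range 0.00827 to 0.0873). The call of Chrm3 was lost after quantile normalization (0.0777), with an added count of 2 (0.120), after thinning (0.390), without D3RA replicates 2 and 3 (0.174) and without D3DMSO replicate 2 or 3, D3RA replicate 2 or 3, D6DMSO replicate 2 or 3 or D6RA replicate 1, 2 or 3 (0.0545 to 0.0875) (range 0.0112 to 0.390). For Gabra5 it was lost after thinning (0.223) and without D3RA replicates 2 and 3 (0.0791) (range 0.00102 to 0.223), for Gria1 lost after thinning (0.0725) and without D3RA replicates 2 and 3 (0.144) (range 0.00286 to 0.144), and for Gria3 lost without D3RA replicates 2 and 3 (0.0693) (range 1.15e-04 to 0.0693). Chrm4, Glrb and Grid1 lost theirs after thinning to the smallest library, at adjusted p values of 0.234, 0.133 and 0.0685.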

How the results depend on the processing

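The number of the 43 genes called moved beyond 1.5 times its value in 1 case: D3DMSO against D0 had 12 calls (5 higher, 7 lower) after thinning all libraries to the smallest, against 25. Leaving out each library in turn gave 28 to 32 calls for D3RA against D3DMSO, 33 to 34 for D6RA against D6DMSO, 31 to 33 for D3RA against D0, 19 to 26 for D3DMSO against D0, 31 to 34 for D6RA against D3RA, 16 to 19 for D6DMSO against D3DMSO and 25 to 29 for the difference between days. Calls that held in every alternative numbered 24 of 33, 31 of 35, 20 of 33, 10 of 25, 25 of 33, 12 of 21 and 17 of 29 in that order, and no called gene changed sign. With the replicate number as a block the counts were 34, 35, 33, 25, 33, 21 and 29; the added call was Gad1, lower in D3RA than in D3DMSO (adjusted p = 0.0484), and same-numbered libraries share only a number. Quantile normalization moved the median of all genes by -0.13 (log2) in D6RA against D3RA and by less than 0.1 elsewhere. The filter of 5 CPM in 3 libraries kept 33 of the 43. A fit with no filter gives no further value, since no gene was dropped. For the lists, leaving out each library gave 29 to 31 calls at day 3 and 37 to 39 at day 6 among auxiliary genes, 16 to 18 and 16 to 17 among transmitter genes, and 13 to 15 and 15 among neuron markers. Reads limit the D3RA values most, where 1 read is worth up to 0.457 CPM.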

Other observations

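Several of the 43 genes are next neighbours among the protein-coding genes of RefSeq (GRCm38.p6), and their values are set side by side here. Gria2 and Glrb adjoin on chromosome 3, and both were higher with RA at day 3 (3.57 ± 0.34 and 1.82 ± 0.15 log2; limma adjusted p = 1.08e-07 and 2.21e-08). At day 6 Gria2 was at 71.9 CPM in D6RA against 0.549 in D6DMSO, while Glrb was at 12.2, 12.5 and 11.1 CPM in D6RA and 10.9, 8.99 and 10.4 in D6DMSO. Chrna5, Chrna3 and Chrnb4 on chromosome 9 all had their highest mean in D3RA, as did Chrna7, which is not among these neighbours.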
